A study of Mus musculus with 8 samples.

Results

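Interferon-stimulated genes are the genes that cells switch on after interferon, a secreted antiviral cytokine. The set described here is a list of 48 mouse gene symbols, matched by name. It was chosen with earlier results of these data known, so its shares against all genes are descriptive. All 48 are among the 25413 genes of the count table, and 44 were expressed highly enough to be tested. They were followed by RNA sequencing of polyadenylated RNA from spheroids, aggregates grown in 3 dimensions, of mouse mammary lines. EpH4 is the wildtype line and EpH4-AS is its malignantly transformed counterpart in the labels, which do not name the transforming change. Each line was either kept without exposure or given PM2.5, the fine fraction of particles in polluted air. Neither the amount nor the duration is stated in the labels used here. The resulting 4 groups, untreated EpH4, EpH4 with PM2.5, untreated EpH4-AS and EpH4-AS with PM2.5, had 2 libraries each and carried 1 batch label. Each line is 1 cell line, so a difference between the lines is a difference between these cells and cannot be told apart from other differences of the 2 lines. Nothing in the labels tells if a group's libraries were separate cultures, so the p-values rest on the spread between libraries, which may be technical.

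Interferons of type I and type III signal through paired receptors to the kinases JAK1 and TYK2. These phosphorylate STAT2, which joins IRF9 in the complex ISGF3, and this complex binds interferon-stimulated response elements (ISRE) in target promoters. Interferon-gamma acts through its own receptor on promoters with gamma-activated sites (GAS). The induced genes include sensors of viral nucleic acid, enzymes and membrane proteins that block viral replication, and factors that amplify or end the signal. Many are also expressed at a basal level without added interferon.

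Total counts per library ran from 15393256 to 27765982, and the members together took 0.105% to 0.122% of counts in EpH4 and 0.0396% to 0.0536% in EpH4-AS. The labels call both lines epithelial, but the defining epithelial markers were at or near 0. Krt19 had 0 counts in all 8 libraries, group means of Cdh1 stayed at or below 0.134 CPM (counts normalised to library size by TMM), and the 8 markers summed to 2.04 to 9.49 CPM per library. Markers of fibroblasts summed to between 2422 and 2817 CPM in EpH4 and between 394.1 and 537.3 CPM in EpH4-AS. Leukocyte markers summed to at most 1.22 CPM in any library. Mitochondrially encoded transcripts took 2.21% to 2.73% of counts in untreated EpH4, 4.23% to 5.03% in EpH4 with PM2.5, and 0.219% to 0.302% in EpH4-AS. The share of gene reads outside exons was 11.3% to 12.5% in EpH4 and 3.39% to 3.59% in EpH4-AS. In bulk RNA, fewer cells that express a gene and less of its RNA per cell cannot be told apart.

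The promoters of the members carried the letters of the response elements more often than promoters at large. RefSeq promoter windows on GRCm38.p6, from 250 bases before to 50 bases after a start, were at hand for 37 of the 48 members. The ISRE core, searched on both strands as GAAA, any 2 bases and GAAA again (TTTC, 2 bases and TTTC when read from the other strand), was present in the windows of 21 of 37 members, 56.8%, against 3.99% of 27025 genes. The GAS letters TTCNNNGAA, which read the same on both strands, were present in 11 of 37 members, 29.7%, against 9.55% of genes. A match is a description of letters and not a measured binding site. The following stretches are printed 5′ to 3′ on the gene's strand, with the motif in capitals. The first 4 belong to the PYHIN family and are shown for their similar cores. Of these, Ifi203, Ifi206 and Ifi211 fell with PM2.5 in EpH4 and Ifi207 was not called. Ifi204, the other member that fell, had no window.
Ifi203 (chr1:173942498-173942547, minus strand): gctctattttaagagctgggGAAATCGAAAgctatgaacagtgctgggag
Ifi206 (chr1:173491329-173491378, minus strand): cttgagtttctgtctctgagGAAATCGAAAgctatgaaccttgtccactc
Ifi207 (chr1:173741821-173741870, minus strand): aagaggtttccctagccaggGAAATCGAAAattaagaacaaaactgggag
Ifi211 (chr1:173913054-173913103, minus strand): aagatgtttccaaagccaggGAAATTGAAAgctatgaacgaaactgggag
The next belong to members that rose with PM2.5 in EpH4. Ifit1, Ifit3 and Ifit3b hold 2 cores each, and the stretches of Ifit3 and Ifit3b are the same letters at 2 places on the chromosome. Isg15 holds 3 overlapping cores.
Ifit1 (chr19:34640765-34640833, plus strand): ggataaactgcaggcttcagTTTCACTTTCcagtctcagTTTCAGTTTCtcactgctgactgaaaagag
Ifit3 (chr19:34583353-34583436, plus strand): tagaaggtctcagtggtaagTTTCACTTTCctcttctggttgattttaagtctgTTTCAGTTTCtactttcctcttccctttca
Ifit3b (chr19:34607749-34607832, plus strand): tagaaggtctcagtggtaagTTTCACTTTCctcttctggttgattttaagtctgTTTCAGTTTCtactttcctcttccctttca
Isg15 (chr4:156200855-156200916, minus strand): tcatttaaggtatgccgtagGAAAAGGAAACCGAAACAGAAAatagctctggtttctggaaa
Gbp2 (chr3:142620584-142620633, plus strand): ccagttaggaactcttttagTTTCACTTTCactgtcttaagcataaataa
Irf1 rose in both lines, and its window holds the GAS letters without an ISRE core.
Irf1 (chr11:53769904-53769952, plus strand): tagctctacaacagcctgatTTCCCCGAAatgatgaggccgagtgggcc

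Per length, the membrane proteins led the set in EpH4. By the authors' RPKM (reads scaled to exon length and library total), untreated EpH4 had Ifitm2 at 119 ± 17.7, Ifitm3 at 111 ± 28.2, Bst2 at 56.5 ± 2.81, Ifi27 at 36.5 ± 0.145 and Ifi203 at 34.0 ± 1.19 (SD, n = 2). Ifitm2 and Ifitm3, which block virus entry at membranes, differed by less than their spread. In untreated EpH4-AS the order was Ifitm2 at 27.9 ± 0.708, Bst2 at 20.65 ± 0.0175, Irf1 at 17.5 ± 0.292 and Adar at 10.8 ± 0.591 RPKM (SD, n = 2). With PM2.5, Irf1 came first in EpH4-AS at 44.4 ± 2.41 RPKM (SD, n = 2). Ifitm2 shares 48.5% of its 50-base stretches with other annotated genes, most of them with the same-strand model Gm45717, so its count is uncertain.

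**Figure D1:**
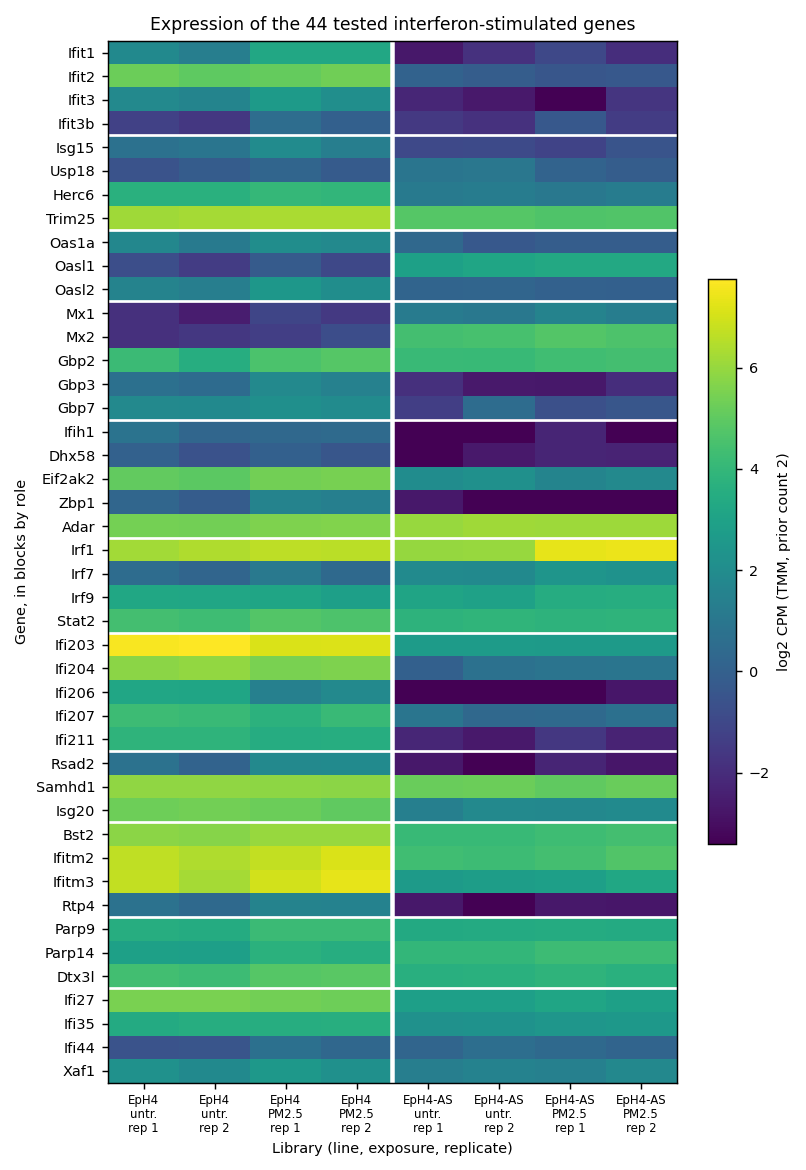
Colour gives log2 CPM (prior count 2) of the 44 tested members, 1 row each in blocks by role, in the 8 libraries. Most rows are darker in the 4 EpH4-AS libraries, the PYHIN block among them, while Mx1, Mx2 and Oasl1 are brighter there and Irf1 is brightest in EpH4-AS with PM2.5.

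The first comparison asked what PM2.5 did to these genes in wildtype spheroids. In EpH4, 22 of the 44 tested members rose with PM2.5 and 4 fell. Those that rose include IFIT proteins, RNA and DNA sensors, the PARP9-DTX3L group and membrane restriction factors, and all 4 that fell are DNA-binding PYHIN proteins. Among all tested genes 14.3% rose and 12.9% fell at the same threshold, an adjusted p under 0.05 in edgeR's quasi-likelihood test over 13716 genes. The rises ran from 0.20 to 2.01 on the log2 scale with a median of 0.72, and 6 of them exceeded 2-fold. The top value is that of Ifit3b, which passed the filter only through the exposed libraries. The median over the 44 members was 0.41 against 0.00 over all tested genes. The groups did not overlap in 36 of 44 members, against 61% of all genes. The DESeq2 Wald test called 11 members higher and 3 lower. Of the 26 calls, 12 were lost under at least 1 alternative setting or left-out library, those of Ifi211, Adar, Gbp3, Ifi44, Isg15, Oasl2, Herc6, Ifitm2, Ifitm3, Rtp4, Ifit3 and Ifit3b. The summed level of the members was 1090 ± 29.7 CPM untreated and 1194 ± 47.4 CPM with PM2.5 (SD, n = 2). The summed leukocyte markers moved the same way, from 0.517 to 0.799 CPM per library up to 1.11 to 1.22 CPM, mostly Adgre1. The defining marker Ptprc was at 0 in both exposed libraries, while Itgam had 0 counts over the untreated libraries and 6 over the exposed ones. Of the 6 leukocyte markers only 1, Adgre1, was expressed highly enough to be tested, and it was not called. The epithelial markers moved too, summing to 3.42 to 3.63 CPM untreated and 8.76 to 9.49 CPM with PM2.5. Most of that was Krt14, a basal keratin, at 3.31 and 3.02 CPM against 8.30 and 8.87 CPM, a log2 fold change of 1.44 ± 0.16 (SE, adjusted p = 3.66e-05). The mitochondrial share rose with PM2.5 in this line as given above. The part of these in the result was not tested. A fit without mitochondrially encoded genes gave 22 and 4 again, but it only removes those genes and rescales the libraries. It cannot tell if what raised the share also moved the members.

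**Figure D2:**
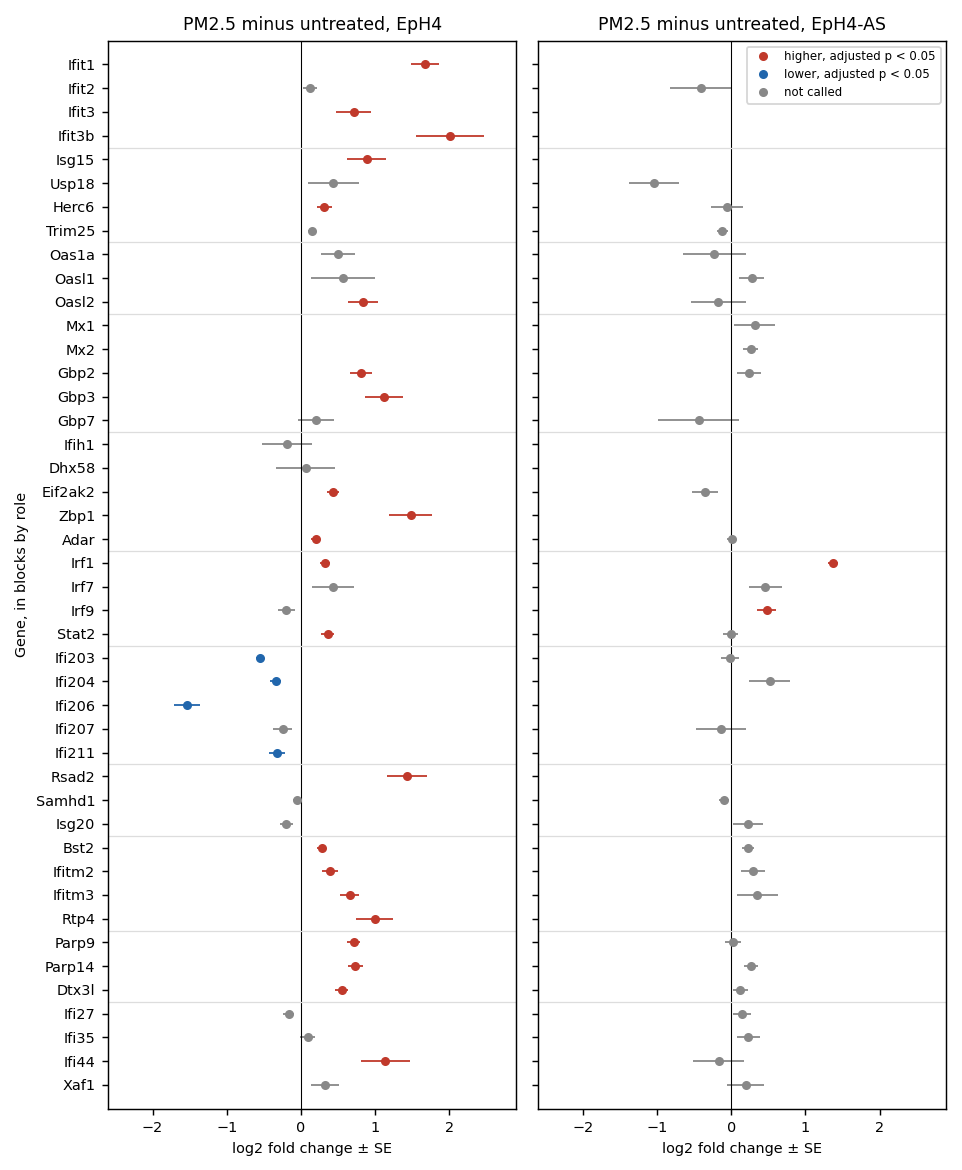
Points give the log2 fold change of PM2.5 against untreated with its standard error, for EpH4 (left) and EpH4-AS (right), in blocks by role. A member is drawn only in the line where its counts passed the filter, and red and blue mark adjusted p under 0.05. EpH4 has 22 red and 4 blue points, and EpH4-AS has red points for Irf1 and Irf9.

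The IFIT proteins bind foreign RNA and curb its translation, and 3 of 4 rose. Ifit1 was at 3.56 and 2.46 CPM in the untreated EpH4 libraries and at 9.63 and 9.61 CPM with PM2.5. The 2 groups lay far apart, with a log2 fold change of 1.67 ± 0.19 (SE, adjusted p = 3.14e-05). Ifit3b went from 0.327 and 0.238 CPM to 1.41 and 0.904 CPM, a log2 fold change of 2.01 ± 0.46 (SE, adjusted p = 0.00492). With 9 and 6 counts untreated against 37 and 22 exposed, it passed the filter only through the exposed EpH4 libraries, where it is high. Ifit3 went from 3.49 and 2.94 CPM to 6.28 and 4.23 CPM, a log2 fold change of 0.71 ± 0.24 (SE, adjusted p = 0.0401). Ifit3 shares 51.2% of its 50-base stretches with Ifit3b, so how the reads divide between the copies is uncertain. Ifit2, the most abundant of the family at 34.2 ± 4.27 CPM untreated (SD, n = 2), had overlapping groups and a log2 difference of 0.12 (adjusted p = 0.363).

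ISG15 is a ubiquitin-like modifier, HERC6 attaches it to targets in mouse, USP18 removes it, and TRIM25 is a ubiquitin ligase of RNA sensing. Isg15 was at 1.56 and 1.83 CPM untreated and at 3.77 and 2.46 CPM with PM2.5, so the exposed libraries differed more from each other than the untreated ones. Its log2 fold change was 0.89 ± 0.26 (SE, adjusted p = 0.0216). Herc6 rose from 12.7 and 12.5 CPM to 16.1 and 15.1 CPM, by 0.31 ± 0.10 on the log2 scale (SE, adjusted p = 0.0291). Trim25 and Usp18 did not pass, at 0.14 (adjusted p = 0.0637) and 0.43 (adjusted p = 0.387). Of the 2'-5' oligoadenylate synthetase family, which makes the activator of RNase L, Oas1a, Oasl1 and Oasl2 were tested. Oasl2, a relative with ubiquitin-like domains, rose from 2.91 and 2.5 CPM to 5.60 and 4.07 CPM, by 0.84 ± 0.20 (SE, adjusted p = 0.00651). Oas1a and Oasl1 stood at 0.50 and 0.57 and did not pass. Oas2 and Oas3 lay below the filter. Oas2 had 0 and 1 counts in the untreated EpH4 libraries and 11 and 1 with PM2.5, so replicate 1 alone was high, and both genes had 0 counts in the 4 EpH4-AS libraries.

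The GBP and Mx proteins are GTPases that act on intracellular pathogens and viral nucleocapsids. Gbp2 was at 18.0 and 11.4 CPM in untreated EpH4 and at 24.2 and 27.6 CPM with PM2.5, a log2 fold change of 0.81 ± 0.14 (SE, adjusted p = 0.00099). Gbp3 rose from 1.53 and 1.31 CPM to 3.47 and 2.71 CPM, by 1.12 ± 0.26 (SE, adjusted p = 0.00541). Both pairs of exposed libraries lay above both untreated ones. Gbp7, Mx1 and Mx2 did not pass in this line.

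Sensors and effectors of nucleic acid rose in 3 of 5 cases. Zbp1, a sensor of Z-form nucleic acid that triggers cell death, was at 1.13 and 0.795 CPM untreated and at 2.86 and 2.55 CPM with PM2.5. Its log2 fold change was 1.48 ± 0.29 (SE, adjusted p = 0.00222). Eif2ak2, which encodes the RNA-activated kinase PKR, rose from 33.2 and 30.3 CPM to 41.5 and 44.1 CPM, by 0.43 ± 0.08 (SE, adjusted p = 0.000941). These are a low and a well-expressed gene, and in each the groups were separate. Adar, the RNA editing enzyme, rose from 42.4 and 41.9 CPM to 47.8 and 48.8 CPM, by 0.20 ± 0.06 (SE, adjusted p = 0.0208). Ifih1 (MDA5) and Dhx58 (LGP2), sensors of double-stranded RNA, differed by -0.19 (adjusted p = 0.735) and 0.06 (adjusted p = 0.949).

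Of the transcription factors, Stat2 and Irf1 rose. Stat2, the ISGF3 subunit that carries the activation domain, went from 21.1 and 19.2 CPM to 26.9 and 24.7 CPM, by 0.36 ± 0.08 (SE, adjusted p = 0.0056). Irf1, an activator that responds to interferon-gamma and to inflammatory signals, went from 73.1 and 84.8 CPM to 99.9 and 97.2 CPM, by 0.32 ± 0.07 (SE, adjusted p = 0.00286). Both exposed libraries were above both untreated ones for each gene. Irf9, the DNA-binding subunit of ISGF3, was at 9.34 and 9.02 CPM untreated and at 8.64 and 7.35 CPM with PM2.5, a log2 difference of -0.20 (adjusted p = 0.248). Irf7, the amplifier of type I interferon genes, stood at 1.34 and 1.07 CPM and at 2.02 and 1.23 CPM, a log2 difference of 0.43 (adjusted p = 0.284).

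The PYHIN proteins of the Ifi200 cluster bind DNA and regulate transcription and inflammasomes. Their 6 members lie within 1 stretch of chromosome 1 (GRCm39, 173296051 to 173859376). Ifi203, the most abundant, was at 200 and 215 CPM in untreated EpH4 and at 140 and 144 CPM with PM2.5. Its log2 fold change was -0.55 ± 0.05 (SE, adjusted p = 8.11e-06). Ifi206 showed the deepest fall of the set, from 9.12 and 8.74 CPM to 2.67 and 3.49 CPM, with a log2 fold change of -1.54 ± 0.18 (SE, adjusted p = 5.56e-05). Ifi204 went from 56.2 and 60.9 CPM to 44.7 and 47.9 CPM, -0.34 ± 0.07 (SE, adjusted p = 0.00421). Ifi211 went from 14.2 and 14.1 CPM to 11.2 and 11.5 CPM, -0.32 ± 0.11 (SE, adjusted p = 0.038). In all 4 genes both exposed libraries lay below both untreated ones. Ifi207, at -0.25, did not pass (adjusted p = 0.164), and its groups, 18.9 and 17.6 CPM against 13.3 and 17.5 CPM, were separated by a small gap. The transcripts share sequence, 72.8% of the 50-base stretches of Ifi211, 30.2% of Ifi204 and 26.1% of Ifi206, against 10.7% of Ifi203 and 7.39% of Ifi207, so the split of reads among the first 3 is uncertain. Ifi205 lay below the filter.

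Among enzymes of nucleotides and RNA, Rsad2 rose. It encodes viperin, which makes a chain-terminating nucleotide, and it was at 1.64 and 0.994 CPM untreated and at 3.47 and 3.70 CPM with PM2.5. The log2 fold change was 1.43 ± 0.27 (SE, adjusted p = 0.0014). Its neighbour Cmpk2 on chromosome 12 lay below the filter. Samhd1, a nucleotide hydrolase, and Isg20, an RNA exonuclease, did not pass, at -0.05 and -0.20. All 4 membrane and trafficking proteins rose. Ifitm3 went from 106 and 75.4 CPM to 125 and 161 CPM, by 0.66 ± 0.13 (SE, adjusted p = 0.00209). Bst2 (tetherin), which holds budding virus at the cell surface, went from 55.4 and 52.9 CPM to 66.0 and 65.5 CPM, by 0.28 ± 0.06 (SE, adjusted p = 0.00347). Rtp4, a receptor-transporting protein, went from 1.64 and 1.23 CPM to 2.89 and 2.83 CPM, by 0.99 ± 0.25 (SE, adjusted p = 0.00985). Ifitm2, with groups at 103 and 85.4 CPM and at 107 and 140 CPM that nearly met, rose by 0.39 ± 0.11 (SE, adjusted p = 0.02).

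PARP9 and DTX3L form a complex that ADP-ribosylates and ubiquitinates targets, and the genes lie beside Parp14 on chromosome 16 (GRCm39, 35653244 to 35792975). All 3 rose. Parp9 went from 11.4 and 10.7 CPM to 18.0 and 18.3 CPM, by 0.71 ± 0.09 (SE, adjusted p = 8.1e-05). Parp14 went from 7.52 and 7.39 CPM to 13.1 and 11.7 CPM, by 0.73 ± 0.10 (SE, adjusted p = 0.000168). Dtx3l went from 20.8 and 18.6 CPM to 28.2 and 29.5 CPM, by 0.55 ± 0.08 (SE, adjusted p = 0.000318). In all 3 genes both exposed libraries lay above both untreated ones. Dtx3l and Parp9 overlap by 682 bases on opposite strands, and the sources used here do not state if reads were counted by strand. Of the 4 remaining members, Ifi44 rose from 0.581 and 0.636 CPM to 1.52 and 1.15 CPM, by 1.14 ± 0.33 (SE, adjusted p = 0.0194). Ifi27, Ifi35 and Xaf1 did not pass, at -0.17, 0.09 and 0.32.

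The same question was asked of the transformed line. In EpH4-AS, PM2.5 raised Irf1 and Irf9, 2 of the 44 tested members, and none fell by edgeR's test. At that threshold 11.1% of all genes changed, 6.39% higher and 4.75% lower, and 4.55% of the members did. With library totals in place of TMM the split over all genes turned from 877 higher and 652 lower to 715 and 916, and the members stayed at 2 and 0. An unadjusted p under 0.05 in edgeR's test was reached by 6 of 44 members, 1 of them lower, against 3456 of 13716 genes. DESeq2's Wald test called Irf1 alone, with no adjusted p for 21 members. A fit to the EpH4-AS libraries only called 6 members higher, adding Mx2, Ifitm2, Gbp2 and Parp14, and 1 lower, Usp18. That fit tested 32 members, and of its 11661 genes 1547 rose and 1448 fell. The groups did not overlap in 24 of 44 members, against 57.5% of all genes. The replicate libraries differed more in EpH4 than in EpH4-AS. Their chi-square over its degrees of freedom was 9.69 untreated and 8.82 exposed in EpH4, and 1.52 and 3.19 in EpH4-AS. The fit shared its estimate of the spread over all 4 groups, so the numbers called in the 2 lines are not directly comparable. Many members are barely expressed in EpH4-AS, and 12 of the 48 had 3 or fewer counts over both untreated libraries. Over the 30 members that passed the filter in each line alone the median log2 difference was 0.08. The fibroblast markers of this line were lower with PM2.5, summing to 533.9 to 537.3 CPM untreated and 394.1 to 395.0 CPM exposed, with Dcn and Lum of the 6 called lower, and their part in the result was not tested.

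Irf1 stood at 63.7 and 64.4 CPM in untreated EpH4-AS and at 160 and 172 CPM with PM2.5. The exposed libraries were the highest of the 8, and the fold change was 2.59, or 1.37 ± 0.07 on the log2 scale (SE, adjusted p = 2.39e-08). The sum of all members in this line was 395 ± 7.57 CPM untreated and 521 ± 17.0 CPM with PM2.5 (SD, n = 2). Irf1 alone had group means of 64.0 and 166 CPM. Irf9 went from 8.61 and 7.65 CPM to 11.0 and 11.6 CPM, by 0.48 ± 0.13 (SE, adjusted p = 0.029). Its groups were separate, but the call was lost when any 1 of the 4 EpH4-AS libraries was left out, with adjusted p between 0.0799 and 0.211. Irf9 overlaps Rnf31 by 123 bases on one strand, and Irf1 overlaps an opposite-strand transcript by 3144 bases. Irf7 rose in value from 3.67 and 3.60 CPM to 5.25 and 4.78 CPM without passing (0.46, adjusted p = 0.213). Usp18, the ISG15 protease that dampens receptor signalling, had the most negative value among members that passed the filter in this line alone, from 1.81 and 1.90 CPM to 0.992 and 0.814 CPM (-1.03, adjusted p = 0.0638).

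**Figure D3:**
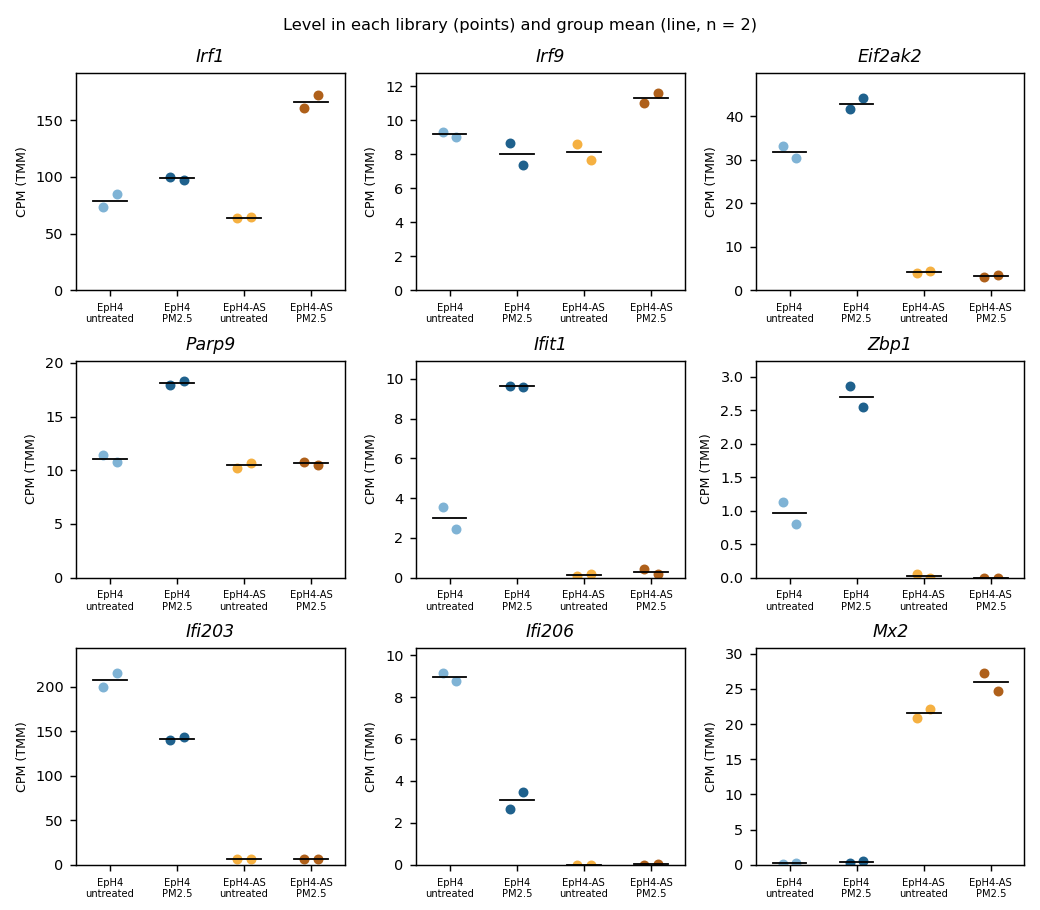
Points give the CPM of each library and lines the group mean (n = 2) of 9 members, on linear axes from 0. Irf1 is highest in EpH4-AS with PM2.5, Parp9, Eif2ak2, Ifit1 and Zbp1 are highest in EpH4 with PM2.5, and Ifi203 and Ifi206 are highest in untreated EpH4.

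The design also asked whether the PM2.5 effect differed between the lines, as an interaction. The effect differed in 6 of 44 members, 13.6%, against 14.1% of all genes, of which 7.6% had a higher and 6.49% a lower effect in EpH4-AS. With library totals these directions over all genes turned from 1042 higher and 890 lower to 838 and 1100. Irf1 and Irf9 had higher effects in EpH4-AS, by 1.05 ± 0.10 (SE, adjusted p = 3.08e-05) and 0.67 ± 0.17 (SE, adjusted p = 0.02) on the log2 scale. Ifi203 fell in EpH4 and stood in EpH4-AS at 6.38 and 6.39 CPM against 6.30 and 6.35 CPM, a difference of effects of 0.54 ± 0.13 (SE, adjusted p = 0.0135). Lower effects in EpH4-AS were found for Eif2ak2, Parp9 and Parp14. Eif2ak2 was at 3.91 and 4.43 CPM in untreated EpH4-AS and at 2.98 and 3.53 CPM with PM2.5, a difference of effects of -0.78 ± 0.19 (SE, adjusted p = 0.013). Parp9, at 10.2 and 10.7 CPM against 10.8 and 10.5 CPM there, had -0.68 ± 0.14 (SE, adjusted p = 0.0057). Parp14, at 15.4 and 15.8 CPM against 18.7 and 18.9 CPM, had -0.46 ± 0.14 (SE, adjusted p = 0.042). The Parp14 call was lost in 9 of 16 alternatives, among them DESeq2 (adjusted p = 0.176) and the fit without mitochondrially encoded genes (adjusted p = 0.0504). Irf9 lost its call in 4 of 16, Ifi203 in 3 and Eif2ak2 in 2, while Irf1 and Parp9 passed in all 16. For 38 members, among them Ifit1, Zbp1 and Rsad2, the difference of effects did not pass. Standard errors in EpH4-AS were wide for members near 0 counts there, 0.86 for Ifit1. Of the 38, 24 passed the filter in each line alone, and what the test could detect in them was not assessed. In edgeR's test an unadjusted p under 0.05 was reached by 16 of 44 members, 11 of them lower, against 3868 of 13716 genes. The median difference of effects was -0.29 over the members and 0.01 over all genes. Leaving out single libraries moved the number of lower effects to between 1 and 6. It was 6 without replicate 1 of untreated EpH4, 1 without replicate 2 of untreated EpH4-AS and 1 without replicate 1 of EpH4-AS with PM2.5. The number of higher effects was 1 without replicate 2 of EpH4-AS with PM2.5.

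The next comparison set the untreated lines side by side. The transformed line expressed most of the set at a lower level. Untreated EpH4-AS was lower than untreated EpH4 in 32 of 44 members and higher in 8, with 4 not called. The lines differ in most genes, since 89.2% of all tested genes were called, 45.7% lower and 43.6% higher. The groups did not overlap in 42 of 44 members, against 94.5% of all genes. The median log2 difference of the members was -1.80, against -0.06 over all genes. The filter enters here, because 12 members passed it only through EpH4 and 2, Mx1 and Mx2, only through EpH4-AS. Of the 30 that passed in each line alone, 21 were lower and 6 higher, with a median of -1.30. Of 6 fibroblast markers 5 were lower in untreated EpH4-AS and 1, Lum, was higher, and their sum was lower. The fibroblast markers and the lower mitochondrial and outside-exon shares of EpH4-AS move with this comparison, and their part in it was not tested. This comparison uses the same untreated EpH4 libraries as the PM2.5 effect in EpH4.

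All 5 tested PYHIN genes were lower in EpH4-AS. Ifi203 was at 200 and 215 CPM in untreated EpH4 and at 6.38 and 6.39 CPM in untreated EpH4-AS, 32.5-fold lower (log2 difference -5.02 ± 0.08, SE, adjusted p = 3.13e-16). Ifi204 was 47.2-fold lower, at 0.903 and 1.58 CPM in EpH4-AS. Ifi206 had 471 counts in untreated EpH4 and 0 in untreated EpH4-AS, at least 96.7-fold lower when 3 counts over the group are taken as the floor. Ifi211 had 746 against 3 counts, a ratio of 153 with a 95% counting interval of 52.2 to 744. Ifi207 was 12.1-fold lower, at 18.9 and 17.6 CPM against 1.81 and 1.20 CPM. Of the IFIT proteins 3 of 4 were lower. Ifit2 was at 37.2 and 31.2 CPM against 0.963 and 0.822 CPM, 38.1-fold lower (adjusted p = 9.13e-13). Ifit1 was at 0.0602 and 0.190 CPM in untreated EpH4-AS, and Ifit3 had 3 counts over both libraries. Ifit3b, low in both lines at 0.283 ± 0.0626 and 0.215 ± 0.0361 CPM (SD, n = 2), was not called. Several sensors and effectors lay at the detection limit of EpH4-AS. Ifih1 had 74 counts against 0, at least 15.2-fold lower, Zbp1 51 against 1, Rsad2 70 against 1 and Rtp4 76 against 1. Eif2ak2 was 7.62-fold lower, Ifitm3 13.9-fold, Isg20 13.2-fold and Isg15 3.88-fold.

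The 8 members that were higher in untreated EpH4-AS were Mx2, Oasl1, Mx1, Irf7, Usp18, Parp14, Ifi44 and Adar. Mx2 was at 0.182 and 0.238 CPM in untreated EpH4 and at 20.9 and 22.2 CPM in untreated EpH4-AS, a log2 difference of 6.65 ± 0.21 (SE, adjusted p = 2.54e-13). Oasl1 was at 0.509 and 0.278 CPM against 7.58 and 8.72 CPM, a log2 difference of 4.33 ± 0.27 (SE, adjusted p = 6.77e-10). Mx1 was at 0.182 and 0.0795 CPM against 2.23 and 1.96 CPM. Mx1 and Mx2 lie together on chromosome 16 and were both higher, whereas Oasl2, beside Oasl1 on chromosome 5, was 2.58-fold lower in EpH4-AS. Irf7 was 2.99-fold higher, Usp18 2.69-fold, Parp14 2.09-fold, Ifi44 2.07-fold and Adar 1.62-fold. The direction of Usp18 holds for exon counts, at 16 and 20 in untreated EpH4 and 30 and 30 in untreated EpH4-AS. Reads over its whole gene, with those outside exons, numbered 110 and 129 against 30 and 31. The Ifi44 call was lost with DESeq2 (adjusted p = 0.0704), without replicate 1 of untreated EpH4 (0.0563) and without replicate 2 of untreated EpH4-AS (0.113), and that of the lower gene Xaf1 was lost in some fits too. Windows were at hand for 4 of the 8, Oasl1, Irf7, Ifi44 and Adar, and 0 of 4 held the ISRE core, against 17 of 27 members that were lower and had a window.

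**Figure D4:**
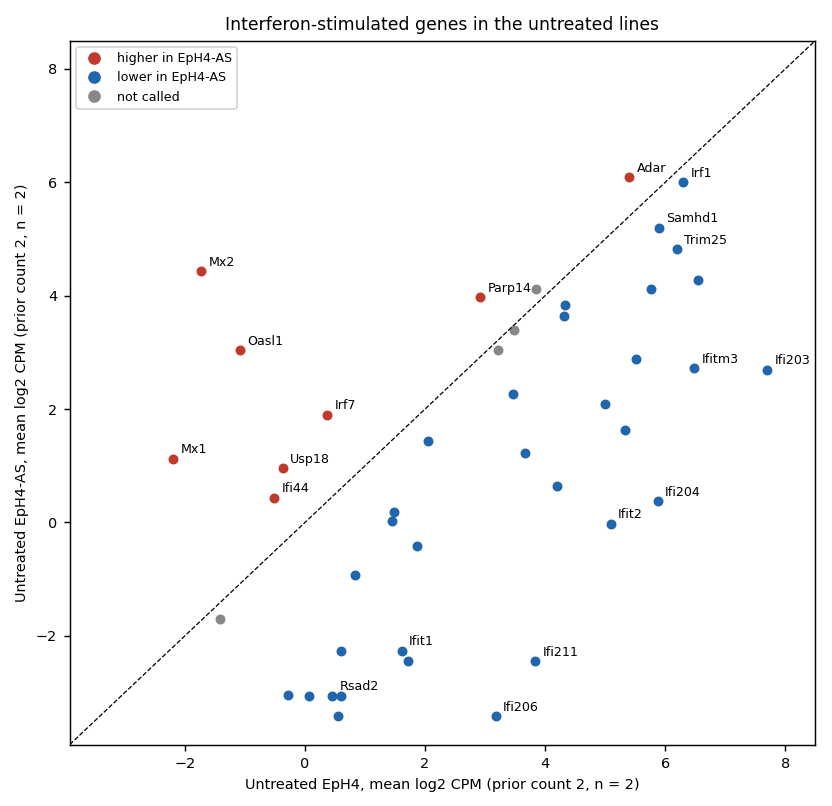
Each point is a tested member, with its mean log2 CPM (prior count 2, n = 2) in untreated EpH4 on the x axis and in untreated EpH4-AS on the y axis. The dashed line marks equal levels, and 32 members lie below it in blue, 8 above it in red, with 4 not called in grey.

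With PM2.5 in both lines, 34 members were lower in EpH4-AS and 8 higher, against 45.5% and 43.5% of all genes and 89% in either direction. The groups did not overlap in 42 of 44 members, against 94.4% of all genes. The median log2 difference was -2.35, against -0.04 over all genes. The same filter applies, and among the 30 that passed in each line alone 22 were lower and 6 higher, with a median of -1.37. Of the members, 31 were lower and 6 higher both without and with PM2.5. Over all genes 89.2% were called without and 89% with PM2.5. The share of all genes called the same way in both was not counted, so these member counts are descriptive. Irf1 was the 1 member called in opposite directions. It was 1.23-fold lower in untreated EpH4-AS (log2 difference -0.30 ± 0.07, SE, adjusted p = 0.00103) and 1.68-fold higher in EpH4-AS with PM2.5 (0.75 ± 0.07, SE, adjusted p = 4.27e-08). Irf9 was not called between the untreated lines (-0.17, adjusted p = 0.203) and was higher in EpH4-AS with PM2.5 by 0.50 ± 0.12 (SE, adjusted p = 0.00134). Parp9 was not called between the untreated lines (-0.09, adjusted p = 0.433) and lower in EpH4-AS with PM2.5, by -0.77 ± 0.10 on the log2 scale (SE, adjusted p = 2.48e-06). Usp18 and Ifi44, higher in untreated EpH4-AS, were no longer called.

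The genes that carry the signal were then examined from a list of the pathway. Interferon genes themselves were almost silent. Of 21 listed ligands 12 had 0 counts in every library, and the others had 61 counts in all, 41 of them without and 14 with PM2.5 in EpH4, and 1 without and 5 with PM2.5 in EpH4-AS. Ifne (interferon epsilon) was highest, at 0.480 ± 0.165 CPM in untreated EpH4 (SD, n = 2) and 0.0396 ± 0.00212 CPM with PM2.5 (SD, n = 2). Ifnb1 was at 0.0363 ± 0.0514 and 0.0822 ± 0.116 CPM there (SD, n = 2). The other ligands with a count were Ifna11, Ifna13, Ifnab, Ifnz, Ifng, Ifnl2 and Ifnl3, and none passed the filter.

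All 5 tested receptor chains were lower in untreated EpH4-AS, where 45.7% of all genes were lower and 89.2% were called in either direction. Ifnar1, the signalling chain of the type I receptor with TYK2, was at 79.5 and 73.9 CPM in EpH4 and at 16.6 and 16.4 CPM in EpH4-AS, a log2 difference of -2.22 ± 0.07 (SE, adjusted p = 5.7e-13). Ifnar2 was 6.05-fold lower, Ifngr1 2.52-fold and Ifngr2 5.15-fold. Il10rb, a chain of the type III receptor, was at 14.0 and 16.5 CPM against 0.120 and 0.127 CPM, and its partner Ifnlr1 stayed below the filter in all groups. With PM2.5, Ifngr2 rose in both lines. It went from 30.7 and 30.0 CPM to 37.4 and 39.2 CPM in EpH4, by 0.34 ± 0.07 (SE, adjusted p = 0.00262), and from 5.66 and 6.13 CPM to 9.04 and 8.63 CPM in EpH4-AS, by 0.58 ± 0.12 (SE, adjusted p = 0.00632). The other 4 tested chains did not pass in either line.

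Among the kinases and factors that carry the signal from the receptors, Jak2 was 1.55-fold higher in untreated EpH4-AS and rose with PM2.5 in that line by 0.29 ± 0.05 (SE, adjusted p = 0.00293), while Jak1 fell in EpH4 from 445 and 476 CPM to 380 and 360 CPM, -0.32 ± 0.05 (SE, adjusted p = 0.000736). Stat3 rose in EpH4 by 0.32 ± 0.07 (SE, adjusted p = 0.00407), and Tyk2 was 1.24-fold higher in untreated EpH4-AS.

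Upstream sensors and adaptors rose in 5 of 12 tested cases with PM2.5 in EpH4 and in none of 12 in EpH4-AS by edgeR's test, where 2 had an unadjusted p under 0.05. Over all genes 14.3% rose in EpH4 and 6.39% in EpH4-AS. Sting1, the adaptor of the DNA-sensing enzyme cGAS, was at 11.1 and 8.39 CPM untreated and at 15.3 and 16.4 CPM with PM2.5, a log2 fold change of 0.70 ± 0.13 (SE, adjusted p = 0.0011). Cgas went from 9.12 and 9.06 CPM to 14.5 and 13.3 CPM, by 0.61 ± 0.11 (SE, adjusted p = 0.000967). Ikbke, a kinase that activates IRF3, rose by 0.64 ± 0.11 (SE, adjusted p = 0.000983), Rigi, the RNA sensor RIG-I, by 0.35 ± 0.07 (SE, adjusted p = 0.00121) and Ticam1, the adaptor of TLR3, by 0.21 ± 0.07 (SE, adjusted p = 0.0328). The effects of Cgas and Ikbke were lower in EpH4-AS than in EpH4, by -0.70 ± 0.18 (SE, adjusted p = 0.0165) and -0.75 ± 0.18 (SE, adjusted p = 0.0135). Between the untreated lines 8 of the 12 were lower in EpH4-AS, against 45.7% of all genes, with Sting1 at 0.241 and 0.316 CPM there, 34.4-fold lower (adjusted p = 2.6e-10). Of 6 negative regulators, Socs3, an inhibitor of JAK kinases, rose in EpH4 by 0.68 ± 0.09 (SE, adjusted p = 0.000139) and Ptpn6 by 0.66 ± 0.21 (SE, adjusted p = 0.0287), while Irf2, a competitor of IRF1, fell by 0.23 on the log2 scale (adjusted p = 0.0145). Socs1, Ptpn2 and Trex1 did not pass in EpH4, and none of the 6 passed edgeR's test in EpH4-AS, where 2 had an unadjusted p under 0.05.

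**Figure D5:**
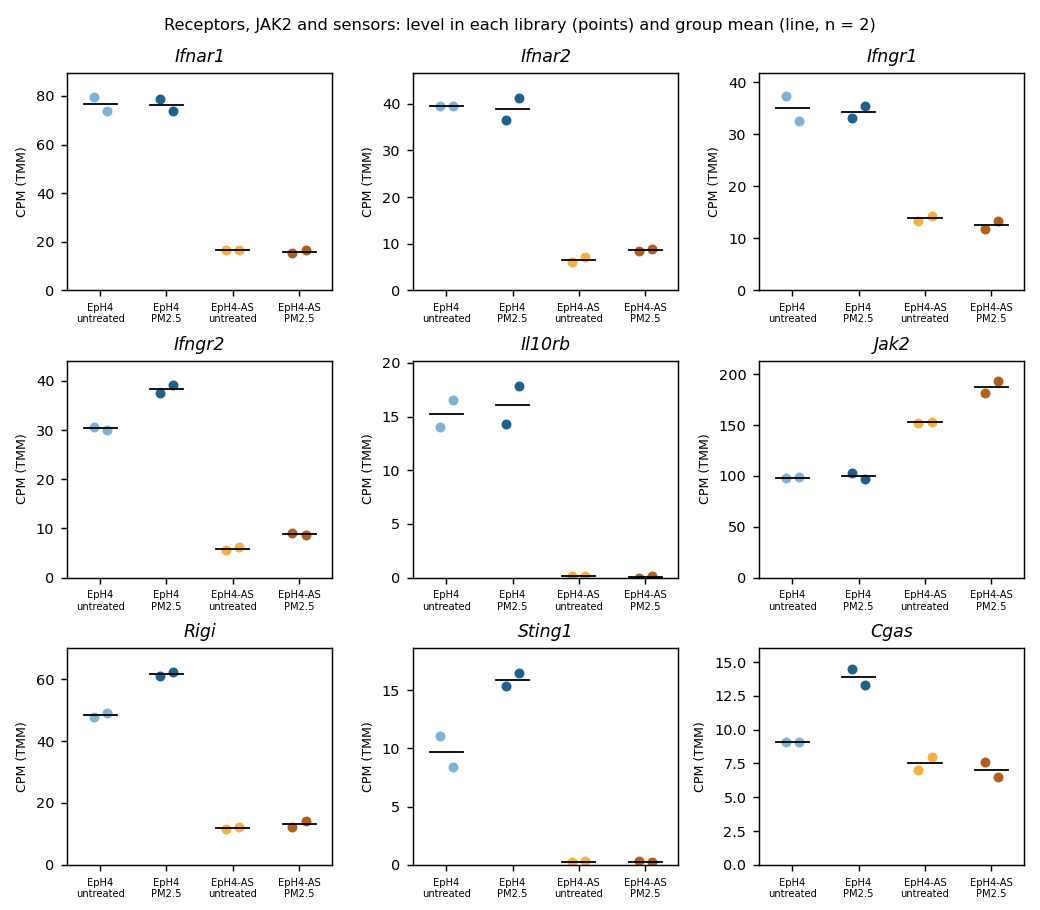
Points give the CPM of each library and lines the group mean (n = 2) for 5 receptor chains, Jak2 and 3 sensors or adaptors, on linear axes from 0. The receptor chains and Sting1 are lower in all 4 EpH4-AS libraries, and Jak2 is higher there.

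A second list held 45 further interferon-induced genes, of which 39 were tested. In EpH4, 15 rose with PM2.5 and 4 fell, against 14.3% and 12.9% of all genes, with a median log2 difference of 0.34. Those that rose included Gbp6, from 3.79 ± 0.135 to 7.94 ± 0.301 CPM (SD, n = 2) with a log2 fold change of 1.06 ± 0.16 (SE, adjusted p = 0.000291). They also included the immunity-related GTPases Irgm1, by 0.66 ± 0.11 (SE, adjusted p = 0.000514), and Iigp1, from 0.114 ± 0.00724 to 0.790 ± 0.0136 CPM (SD, n = 2). Iigp1 passed the filter only through the exposed EpH4 libraries, where it is high, with 40 counts over both. It had 5 counts in untreated EpH4-AS and 3 with PM2.5 there. Which others of this list passed in that way was not examined. Of the 4 that fell 3 were again PYHIN genes, Ifi208 at -0.98 ± 0.21 (SE, adjusted p = 0.00483), Ifi213 at -1.10 ± 0.26 (SE, adjusted p = 0.00662) and Ifi202b at -0.29 ± 0.07 (SE, adjusted p = 0.00651), and the fourth was Tor3a. Ifi209, of the same family, rose by 0.46 ± 0.10 (SE, adjusted p = 0.00286). In EpH4-AS 3 of 39 rose by edgeR's test and 0 fell, so 7.69% were called against 11.1% of all genes, of which 6.39% rose. They were Slfn2 by 0.75 ± 0.10 (SE, adjusted p = 0.000326), Parp12 by 0.32 ± 0.08 (SE, adjusted p = 0.0185) and Ifi202b from 0.896 ± 0.0747 to 1.79 ± 0.226 CPM (SD, n = 2, edgeR adjusted p = 0.0411). In that test 6 of the 39 had an unadjusted p under 0.05 in either direction, against 3456 of 13716 genes. Between the untreated lines 27 were lower in EpH4-AS and 8 higher, so 89.7% were called, near the 89.2% over all genes.

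Across the members, the promoter letters and the PM2.5 response in EpH4 stood as follows. Of 18 members that rose and had a window, 12 held the ISRE core, as did all 3 that fell and had a window and 4 of 13 that were not called. The GAS letters were held by 5 of the 18, 0 of the 3 and 6 of the 13.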

How the data were processed

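RNA sequencing counts of 8 libraries in 4 groups were used. The authors deposited raw whole-number counts of reads per gene on GRCm39, per the submitters' processing notes, and RPKM values, which served only to compare levels between genes. Aligner, counter, strand setting and gene annotation: not given in the sources used here. Per the labels' protocols the kit was stranded.

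Of 25413 genes, 13716 passed filterByExpr. After TMM scaling, edgeR 4.0.16 (R 4.3.3) fitted a single 4-group quasi-likelihood model, leaving 4 residual degrees of freedom. Log2 fold changes were computed from the deposited counts, with a standard error taken as their size divided by the root of F. P-values, two-sided, were adjusted by Benjamini-Hochberg over all tested genes for each of 5 contrasts, with a threshold of 0.05. On data simulated for the PM2.5 effect in EpH4 with 12581 genes, the test found 83.3% of the changes of 1.5-fold, 93.2% at 2-fold and 98.4% at 4-fold, with 16 false among 198 calls (8.08%). The simulation gave every gene the same spread (dispersion 0.00218) and started all 4 groups from the untreated EpH4 mean. Changes were placed only in genes above a count limit. These rates therefore do not carry over to members with few counts or a wider spread. Folds against 3 or fewer counts were taken with a floor of 3 counts over the group or an exact 95% interval, which covers counting error only. Sequence shared between genes was counted in GENCODE transcripts on GRCm38.

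Members and lists were chosen with earlier results of these data known. The rule for naming took, for each PM2.5 contrast and the interaction, up to 24 called members by adjusted p at 1 CPM or more, all called against the majority, and the 4 transcription factors. Others are named as members of their role. Of each pathway list it took receptors, transducers, detected ligands and up to 6 others, of which 1 gene is not reported here. Alternatives were DESeq2 size factors, the DESeq2 1.42.0 Wald test, library totals, no filter, 1 CPM in 2 libraries, 2 groups only, a replicate block and each library left out. A crossed block and a fit without mitochondrially encoded genes were chosen after seeing the data.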

Additional observations from a re-analysis of the deposited data

Results flagged for a closer look

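For 6 of 44 tested members, 13.6% against 14.1% of all genes, the PM2.5 effect differed between the lines by the interaction test. That was edgeR's quasi-likelihood test with adjustment over all genes. The difference, EpH4-AS minus EpH4 on the log2 scale, was 1.05 for Irf1, 0.67 for Irf9, 0.54 for Ifi203, -0.46 for Parp14, -0.68 for Parp9 and -0.78 for Eif2ak2. Irf1 and Parp9 passed under all 16 alternatives run. Groups of 2 libraries were not examined for single outlying libraries.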

How the results depend on the processing

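No called member reversed its direction under any alternative run. Counts of called members moved by more than 1.5 times in these cases. For the PM2.5 effect in EpH4 the DESeq2 Wald test called 11 higher. For the effect in EpH4-AS it called 1 higher, the 2 groups alone gave 6 higher and 1 lower, and no filter gave 1 lower. Lower effects in the interaction numbered 5 with library totals, 6 with no filter and 5 with the crossed block. The replicate numbers did not pair the samples (r of replicate differences across genes -0.101 in EpH4 and 0.065 in EpH4-AS). The replicate block gave 21 higher and 3 lower in EpH4, 2 and 0 in EpH4-AS, 8 and 32 and then 8 and 34 between the lines, and 3 and 2 in the interaction. Pairing crossed numbers in EpH4 with PM2.5 gave 22 and 5, 2 and 0, 8 and 32, 8 and 34, and 3 and 5.

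Smaller moves, in the order higher and lower, included 18 and 4 in EpH4 with 2 groups alone and 2 and 2 in the interaction with DESeq2. With single libraries left out, the members higher and lower numbered 15 to 22 and 3 to 4 in EpH4, and 1 to 2 and 0 to 0 in EpH4-AS. They numbered 7 to 8 and 32 to 33 between the untreated lines, 8 to 8 and 33 to 35 with PM2.5, and 1 to 4 and 1 to 6 in the interaction. A library left alone in its group took its spread from the remaining groups. Of 26 members called in EpH4, 12 lost the call under some alternative, and the cause was not tested. Members under the filter were not testable at this depth. Over all genes, the effect in EpH4-AS (877 higher, 652 lower) gave 1547 and 1448 with 2 groups alone and 265 and 98 without replicate 1 of untreated EpH4-AS. The effect in EpH4 (1956 and 1770) gave 1353 and 1205 with 2 groups alone. With DESeq2 it gave 1224 and 1106, and the interaction (1042 and 890) gave 688 and 636.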
